A study of Mus musculus with 6 samples.

Results

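The ubiquitin-specific proteases were examined in mouse haematopoietic stem cells (HSCs) that had either kept or lost a fluorescent chromatin label. The members were all genes with a symbol of Usp followed by a digit in the array's probe-to-gene table, apart from Usp9x and Usp9y, read from probe sets assigned to 1 gene. This gave 49 genes of 18193 on the array, carried by 120 probe sets. Each gene was read from its probe set of highest mean over the 6 arrays, so levels are compared between samples and never between genes. Of the members, 47 are Usp family genes by name. The others are Usp6nl, which encodes a GTPase-activating protein for Rab GTPases and no protease, and Usp46os2, named as a transcript from the strand opposite Usp46.

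Ubiquitin is a small protein that ligases attach to other proteins, where it can mark them for destruction by the proteasome, alter their position or change their activity. Ubiquitin-specific proteases remove it again and form the largest family of deubiquitinases. They are cysteine proteases that act on histones, DNA repair proteins, cell cycle regulators and receptors, and several (Usp1, Usp3, Usp10, Usp15, Usp16 and Usp22) have been tied to the maintenance or differentiation of blood stem cells in mice.

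All animals carried 2 transgenic elements, SCL-tTA and H2B-GFP. A transactivator placed under the endogenous locus of Scl (Tal1) turned on a green fluorescent histone, and doxycycline shut this off for 170 days. Bone marrow cells were then sorted as CD34 negative, lineage negative, Sca1 positive, cKit positive, CD150 positive and CD48 negative in both groups. Label-retaining cells (LRC, 3 samples) were GFP positive and non-LRC (3 samples) were GFP negative. A cell without GFP may have lost it by division or never had it, since the label depends on activity of the Scl locus. The labels call the samples independent, while the age of the mice, and whether a sample pooled several of them, are not given in the sources used here.

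The median value of an array was 4.33 to 4.39 (log2). The array of LRC replicate 1 stood apart most, with correlations of 0.901 to 0.919 with the others across probe sets. Spiked-in hybridization controls averaged 11.24 and 11.02 on LRC replicates 1 and 3 and 10.58 to 10.70 on the other 4 arrays. The 6 measured HSC markers of 8 listed (Kit, Slamf1, Procr, Mecom, Hlf and Tal1) all had means above the array median, at a list mean of 9.34 to 9.84 in LRC and 9.21 to 9.55 in non-LRC. Of the markers of other cells, 2 of 3 measured erythroid, 3 of 4 megakaryocyte, 3 of 5 myeloid and 2 of 3 endothelial genes also had means above it, and 0 of 3 B cell and 0 of 2 T cell genes. The list means overlapped between the groups for each of these 6 lists, and their part in the results was not tested. Cd34, which the gate excludes, was at 2.52, 6.97 and 5.10 in LRC and at 7.43, 6.60 and 5.62 in non-LRC. Cd48, which it excludes too, was low on every array, at 2.85, 2.60 and 2.36 in LRC and at 2.59, 2.34 and 3.27 in non-LRC. Of the 5 myeloid genes, Mpo and Lyz2 were lowest in LRC replicate 1, at 4.03 against 7.57 to 9.20 and at 7.75 against 9.12 to 9.72. Elane was lowest there too, at 4.61 against 4.71 to 6.20, while Itgam was highest there, at 3.21 against 2.59 to 2.69, and Csf1r was at 4.34 within a range of 4.03 to 4.47.

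No Usp gene passed the test between LRC and non-LRC. Adjusted by the Benjamini-Hochberg method over 45037 probe sets, limma called 0 members, and 0% of all probe sets, with adjusted p-values of the members at 0.998 or more. At an unadjusted p under 0.05, limma gave 1673 probe sets over the whole array. Among the members 6 of 49 (12.2%) had such a p, against a background of 3.75% of all genes. Of these, 4 had the higher mean in LRC (Usp53, Usp20, Usp12 and Usp49, against 1.73% of all genes) and 2 the lower (Usp15 and Usp48, against 2.02%). The 2 groups did not overlap in 8 members (16.3%), against 8.32% of all genes. LRC lay above non-LRC in 5 of them (10.2%, against 4.71%) and below in 3 (6.12%, against 3.62%). Among the 42 members whose mean reached the 40th percentile of all probe sets, 14.3% had an unadjusted p under 0.05, against 5.07% of the genes that bright, and 19% did not overlap, against 8.89%. These shares describe the members, and no test of the family as a whole was made.

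As a family the proteases had no common direction. The mean was lower in LRC for 21 members (42.9%), against 45.1% of all genes, and the median difference (LRC minus non-LRC, log2) was 0.07, against 0.03 over all genes. Without Usp6nl and Usp46os2 the mean was lower for 19 of 47 (40.4%), with a median difference of 0.08. Single differences ran from -1.01 to 1.73. Their median size, whatever the sign, was 0.31, against 0.21 over all genes and 0.25 over genes at or above the 40th percentile. Because the samples are bulk RNA brought to nearly equal distributions, fewer expressing cells and less RNA per cell cannot be told apart.

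**Figure D1:**
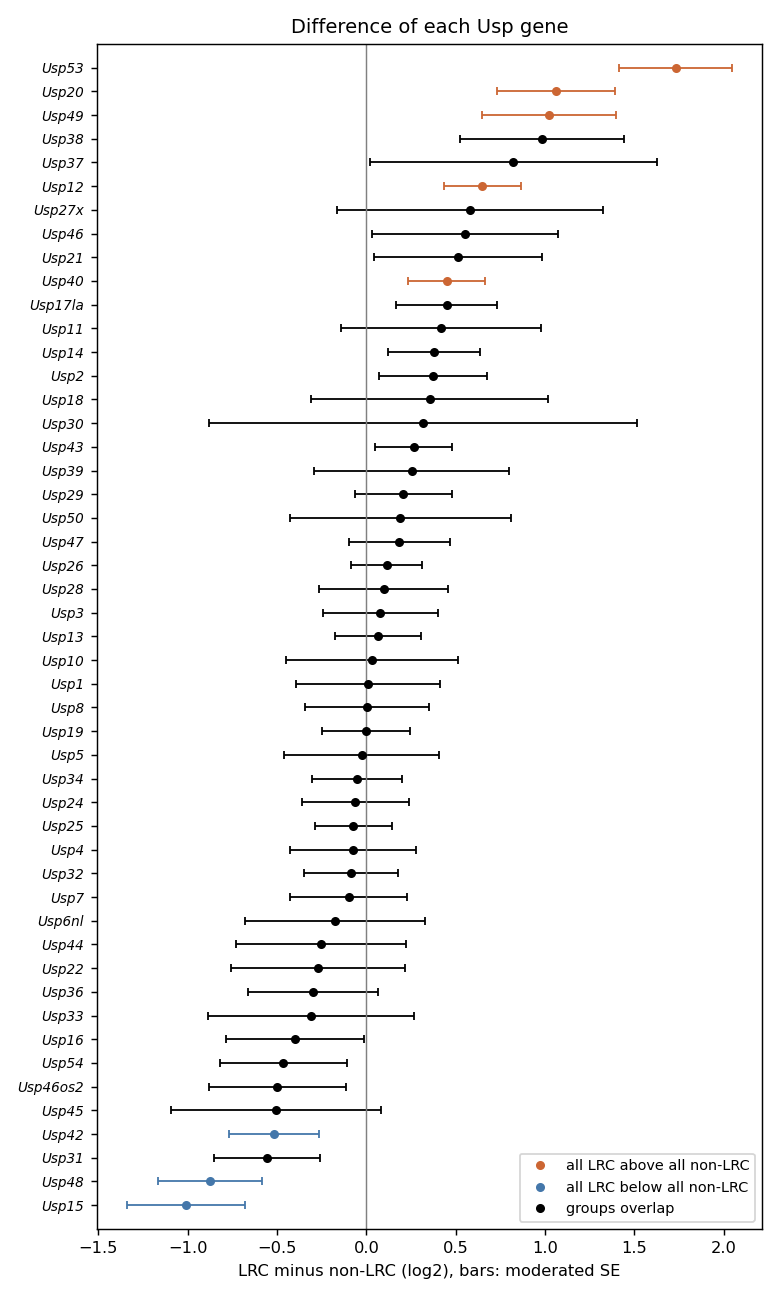
Difference between LRC and non-LRC (x axis, log2) for each of the 49 Usp genes (y axis), as point and moderated standard error. Coloured points mark the 5 genes with all LRC values above, and the 3 with all LRC values below, all non-LRC values; Usp53 lies farthest from 0, at 1.73.

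Promoter sequences are shown for 5 of the 6 genes of smallest p, so that members with higher and with lower values can be set side by side. RefSeq sequences of the build GRCm38.p6 matched 38 of the 49 members, among them 5 of the 6 with an unadjusted p under 0.05. Usp53, the member of smallest p, had no match and is not shown. The 250 bases upstream of each start site are printed 5′ to 3′ on the gene's own strand, with GC boxes (GGGCGG on either strand) in capitals. Usp20 (chr2:30982029-30982278, plus strand), Usp12 (chr5:146794957-146795206, minus strand) and Usp49 (chr17:47630440-47630689, plus strand) had higher means in LRC. Usp15 (chr10:123197020-123197269, minus strand) and Usp48 (chr4:137593922-137594171, plus strand) had lower means.
Usp20: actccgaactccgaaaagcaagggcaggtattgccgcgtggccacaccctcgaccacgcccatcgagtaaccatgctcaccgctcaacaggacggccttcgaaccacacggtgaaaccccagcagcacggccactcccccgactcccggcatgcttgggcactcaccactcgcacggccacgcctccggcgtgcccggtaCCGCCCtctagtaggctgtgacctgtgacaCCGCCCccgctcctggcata
Usp12: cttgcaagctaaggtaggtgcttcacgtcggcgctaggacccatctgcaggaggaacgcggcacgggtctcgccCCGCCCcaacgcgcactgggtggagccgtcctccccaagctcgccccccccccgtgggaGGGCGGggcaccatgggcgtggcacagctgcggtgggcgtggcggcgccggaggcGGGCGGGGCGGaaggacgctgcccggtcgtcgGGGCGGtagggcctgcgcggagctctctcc
Usp49: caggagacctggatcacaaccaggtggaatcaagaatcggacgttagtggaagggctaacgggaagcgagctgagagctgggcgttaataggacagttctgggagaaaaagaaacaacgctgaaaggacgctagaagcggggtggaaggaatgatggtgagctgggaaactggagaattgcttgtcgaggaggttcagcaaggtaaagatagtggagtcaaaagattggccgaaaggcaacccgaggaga
Usp15: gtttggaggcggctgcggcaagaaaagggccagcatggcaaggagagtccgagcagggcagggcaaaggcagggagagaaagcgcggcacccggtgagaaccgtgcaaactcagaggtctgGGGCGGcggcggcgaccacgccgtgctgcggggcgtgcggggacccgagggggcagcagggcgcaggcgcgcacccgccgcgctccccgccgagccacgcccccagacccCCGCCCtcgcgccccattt
Usp48: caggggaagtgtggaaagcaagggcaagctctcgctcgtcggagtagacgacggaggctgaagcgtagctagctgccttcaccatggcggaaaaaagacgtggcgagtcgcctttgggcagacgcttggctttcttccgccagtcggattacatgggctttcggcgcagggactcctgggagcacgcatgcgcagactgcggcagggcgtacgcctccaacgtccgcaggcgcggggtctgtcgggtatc
GC boxes, the letters bound by Sp1-type factors, occurred 5 times upstream of Usp12, 2 times each upstream of Usp20 and Usp15, and 0 times upstream of Usp48 and Usp49. So both directions held a promoter with and one without the motif. In the same window 25 of 39 member promoters (64.1%) held a GC box, against 32.7% of the 32851 promoters in the table, and their median number of CpG pairs was 23, against 6. The CCAAT box was found in 25.6% of member promoters and in 33.8% of all, and the TATAAA box in 5.13% and 12.4%. The ETS motif CCGGAAG stood in 17.9% of member promoters and in 6.91% of all. Usp49 was the 1 member with the core of the interferon-stimulated response element, which 2.98% of all promoters held. The promoters of the table were not limited to genes measured on the array, so the 2 sets may differ in more than family membership. These matches describe letters and are no evidence of binding.

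Usp53 had the largest difference of the family. It encodes a protein of tight junctions that was long classed among the Usp proteins without protease activity. Its values were 6.72, 6.42 and 6.45 in LRC and 4.20, 5.34 and 4.85 in non-LRC, so that every LRC array lay above every non-LRC array. The means were 6.53 ± 0.16 and 4.80 ± 0.57 (log2, SD, n = 3 each), a 3.32-fold higher level in LRC (difference 1.73, SE 0.32). In limma the unadjusted p was 0.00132 and the adjusted p 0.998. Of the 6 members it was the 1 whose unadjusted p stayed under 0.05 whichever array was left out, with differences of 1.43 to 2.00. Another probe set of Usp53 went the other way, at 2.86, 4.87 and 4.39 in LRC and 7.24, 5.91 and 4.13 in non-LRC (difference -1.72, SE 0.88), and the mean of its 3 probe sets differed by 0.14 (SE 0.26). Which transcript each probe set reads was not analysed here. Usp54, its closest relative, differed by -0.46 (SE 0.35), with 5.87, 6.11 and 5.79 in LRC and 5.65, 6.58 and 6.94 in non-LRC. Usp39, a splicing factor that has lost the catalytic residues, differed by 0.25 (SE 0.55).

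Usp20 removes ubiquitin from the hypoxia factor HIF1A and from the beta-2 adrenergic receptor. It was at 6.16, 6.38 and 5.80 in LRC and at 4.60, 4.89 and 5.67 in non-LRC, without overlap, although both replicates 3 were close. The difference was 1.06 (SE 0.33), a 2.09-fold higher level in LRC, with an unadjusted p of 0.0167 in limma. Its 3 further probe sets differed by 0.20 (SE 0.19), 0.04 (SE 0.16) and -0.39 (SE 0.43). Usp33, its nearest relative, which also acts on a centriole protein, had overlapping groups and was at 5.62, 6.21 and 5.05 in LRC and at 7.15, 5.35 and 5.31 in non-LRC (difference -0.31, SE 0.57).

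**Figure D2:**
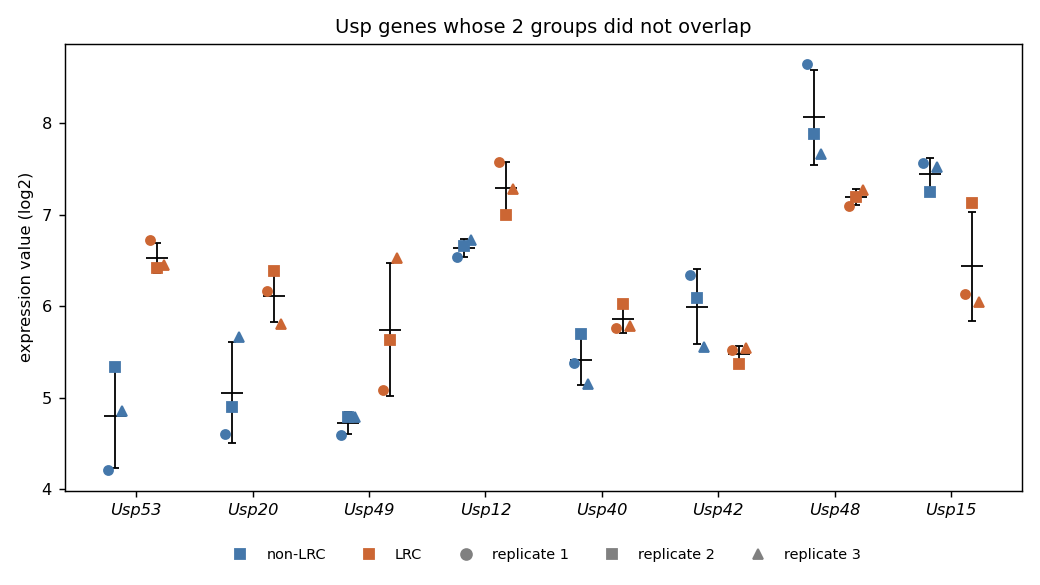
Expression values (y axis, log2) of the 8 Usp genes (x axis) whose groups did not overlap, with 1 symbol per array, coloured by group and shaped by replicate; black bars give the group mean and SD (n = 3). Usp53 shows the widest gap between groups. Narrow ones are seen in Usp42 (LRC 5.54 against non-LRC 5.55), Usp40 (5.76 against 5.69), Usp15 (7.13 against 7.25) and Usp20 (5.80 against 5.67).

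Genes that remove ubiquitin from histones had no common direction. Of 8 measured members of this class, 4 had a higher and 4 a lower mean in LRC, and the class median was -0.09. Usp49, which acts on histone H2B, was at 5.08, 5.63 and 6.52 in LRC and at 4.59, 4.78 and 4.79 in non-LRC. All its LRC values lay above, but they were more widely spread (SD 0.73 against 0.12). The difference was 1.02 (SE 0.38), a 2.03-fold higher level in LRC, with an unadjusted limma p of 0.0327. Without LRC replicate 3 it was 0.63, and the p stayed under 0.05 in 1 of 6 fits that left out an array. Its other probe set had the same order, without overlap, at 5.26, 5.35 and 5.06 against 4.97, 4.95 and 4.63, and the mean of both differed by 0.70.

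Usp21, a histone H2A protease, was at 5.37, 5.73 and 7.09 in LRC and at 5.22, 5.57 and 5.86 in non-LRC. Its difference of 0.51 (SE 0.47) came from LRC replicate 3, and without that array it was 0.00. Usp16, the H2A protease needed for HSC commitment, was at 5.72, 6.39 and 5.34 in LRC and at 6.84, 5.99 and 5.83 in non-LRC (difference -0.40, SE 0.38). The groups overlapped, and without non-LRC replicate 1 the difference was -0.09. Usp22, the protease of the SAGA coactivator complex, was at 5.49, 6.42 and 7.09 in LRC and at 6.0016, 6.62 and 7.19 in non-LRC (difference -0.27, SE 0.49). Its low-to-high spread within each group was larger than the gap between them.

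Usp3, another H2A protease, whose loss impairs HSC function in mice, depended on the probe set. Its representative probe set was at 6.49, 6.48 and 7.29 in LRC and at 6.73, 7.03 and 6.26 in non-LRC (difference 0.08, SE 0.32). A probe set singled out here after its values were seen was at 5.42, 4.59 and 3.81 in LRC and at 7.43, 6.40 and 6.25 in non-LRC (difference -2.09, SE 0.50). A further one was at 7.59, 6.05 and 7.03 against 6.17, 6.32 and 4.75 (difference 1.14, SE 0.56). The 5 probe sets of Usp3 thus gave no single direction. The other class members, Usp36, Usp27x and Usp44, differed by -0.30, 0.58 and -0.25, each with overlapping groups.

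Among the 10 measured members tied to p53, DNA repair and replication, 6 had a higher and 4 a lower mean in LRC (class median 0.02). Usp48, which removes the ubiquitin that BRCA1 places on histone H2A, was at 7.10, 7.19 and 7.28 in LRC and at 8.65, 7.89 and 7.66 in non-LRC. The LRC arrays lay close together and below every non-LRC array. The difference was -0.87 (SE 0.29), a 1.83-fold lower level in LRC, with an unadjusted limma p of 0.022. Without non-LRC replicate 1 it was -0.58. At its 2 further probe sets the differences were 0.01 (SE 0.33) and 0.26 (SE 0.21).

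Usp42, a p53 deubiquitinase, was at 5.52, 5.37 and 5.54 in LRC and at 6.35, 6.09 and 5.55 in non-LRC. Its groups barely separated, the difference was -0.52 (SE 0.25), and the difference at the remaining probe set was 0.45 (SE 0.25). Usp45, which activates a nuclease of DNA crosslink repair, was at 4.45, 5.91 and 4.07 in LRC and at 6.18, 4.95 and 4.82 in non-LRC (difference -0.51, SE 0.59), and without non-LRC replicate 1 its difference was -0.07.

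Usp7, the protease of p53 and of its ligase MDM2, had overlapping groups. Its values were 9.62, 10.22 and 9.50 in LRC and 9.98, 9.35 and 10.30 in non-LRC (difference -0.10, SE 0.33), and its 6 further probe sets differed by -0.63 to 0.05. Usp47, the relative of Usp7 that acts in base excision repair, differed by 0.18 (SE 0.28). Usp10, which deubiquitinates p53 and is required for HSC survival, was at 8.29, 8.18 and 6.69 in LRC and at 8.05, 7.23 and 7.78 in non-LRC (difference 0.03, SE 0.48). LRC replicate 3 was the lowest of all, and without it the Usp10 difference was 0.54. Usp11, Usp28 and Usp29 differed by 0.42, 0.10 and 0.21.

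Usp1, Usp12 and Usp46 share a cofactor, UAF1, encoded by Wdr48, and Usp12 and Usp46 are further stimulated by WDR20. Usp12 was at 7.58, 7.0009 and 7.29 in LRC and at 6.54, 6.65 and 6.73 in non-LRC, with no overlap. The difference was 0.65 (SE 0.21), a 1.57-fold higher level in LRC, with an unadjusted limma p of 0.0216, and the further probe sets differed by 0.22 (SE 0.40) and 0.11 (SE 0.25). The Usp12 difference was 0.39 (limma p 0.135) with the hybridization controls as a covariate, a level that partly coincides with group. With LRC reduced to replicate 2, the LRC array nearest to non-LRC, it was 0.36. Trend and robust moderation gave a limma p of 0.0767. Wdr48 was at 8.63, 9.03 and 9.02 in LRC and at 8.20, 8.30 and 8.37 in non-LRC. Its LRC arrays lay above every non-LRC array (difference 0.60, SE 0.20), with an unadjusted limma p of 0.0208 and an adjusted p of 0.998. Wdr48 was named as the cofactor of smallest p. Any further probe sets and its covariate fit are not given here, and a link to Usp12 was not tested.

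In the other genes of this module the groups overlapped. Usp46 was at 5.99, 6.33 and 6.64 in LRC and at 4.59, 6.16 and 6.54 in non-LRC. Its difference of 0.55 (SE 0.52) rested on non-LRC replicate 1, and without that array it was -0.03. Usp1, the protease of FANCD2 and PCNA, was at 8.27, 8.11 and 8.39 in LRC and at 7.35, 8.84 and 8.55 in non-LRC (difference 0.01, SE 0.40), and Wdr20 differed by 0.24 (SE 0.41). Usp46os2 was at 4.96, 4.45 and 4.03 in LRC and at 4.34, 5.51 and 5.09 in non-LRC (difference -0.50, SE 0.38).

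**Figure D3:**
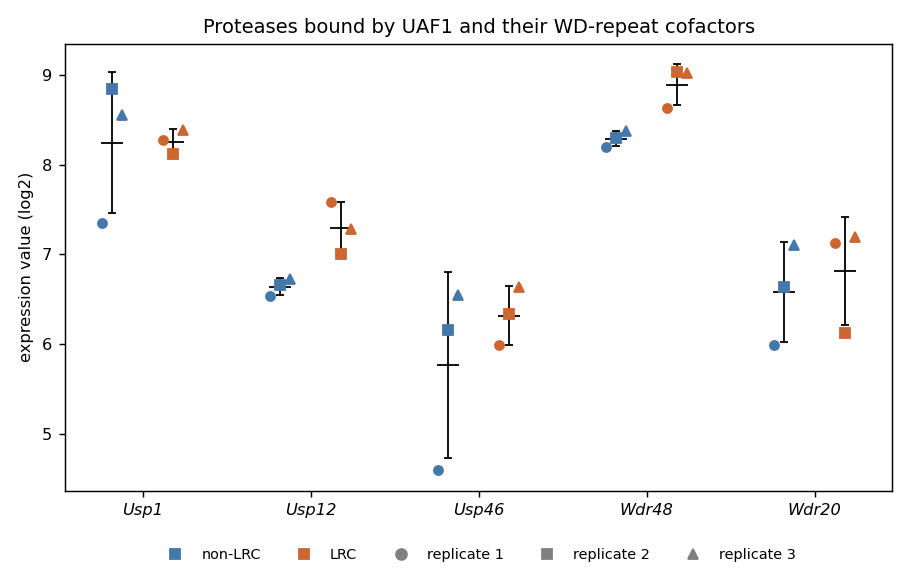
Expression values (y axis, log2) of the 3 proteases bound by UAF1 and of the cofactor genes Wdr48 and Wdr20 (x axis), 1 symbol per array, with group mean and SD in black (n = 3). Only Usp12 and Wdr48 of these 5 genes show LRC arrays all above non-LRC arrays.

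Among proteases of immune, NF-kappaB and TGF-beta signalling, Usp15 had the largest difference. It sustains TGF-beta signalling by acting on the type I receptor and on SMAD proteins, and its level in LRC averaged 6.44 ± 0.60 against 7.45 ± 0.17 in non-LRC (SD, n = 3 each). The arrays were at 6.14, 7.13 and 6.04 in LRC and at 7.56, 7.25 and 7.53 in non-LRC, so that LRC replicate 2 lay just below the non-LRC range. The difference was -1.01 (SE 0.33), a 2.01-fold lower level, with an unadjusted limma p of 0.0206. Both low LRC arrays were those with bright hybridization controls. With the control level as a covariate the difference was -0.49. It was -0.32 with LRC reduced to replicate 2, the LRC array nearest to non-LRC. Control level and group partly coincide on these arrays and cannot be told apart, and the cause was not tested. Its 5 further probe sets differed by -0.16 to 0.54, 1 of them below 0, and the mean of all 6 differed by -0.04.

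Usp4 and Usp11, the near relatives of Usp15, differed by -0.08 (SE 0.35) and 0.42 (SE 0.56). Usp18, which removes the ubiquitin-like protein ISG15 and is induced by interferon, was at 2.15, 4.57 and 4.02 in LRC and at 2.75, 3.89 and 3.04 in non-LRC. LRC replicate 1 was its lowest array and LRC replicate 2 its highest, so the difference of 0.35 (SE 0.66) was smaller than the spread within LRC, and without replicate 1 it was 1.07. Usp25, Usp24 and Usp34 differed by -0.07, -0.06 and -0.05. These 3 had overlapping groups and standard errors of 0.21 to 0.30.

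Of the 3 proteases that process free ubiquitin or work at the proteasome, 2 had a higher mean in LRC, and all 3 had overlapping groups. Usp14, which trims chains on proteins docked at the proteasome, was at 6.83, 6.89 and 6.58 in LRC and at 6.83, 6.31 and 6.04 in non-LRC (difference 0.38, SE 0.26). Its 3 further probe sets differed by -1.48 to -0.08, and the mean of the 4 differed by -0.37. Usp13 was at 4.71, 4.07 and 4.21 in LRC and at 4.44, 4.29 and 4.06 in non-LRC (difference 0.07, SE 0.24). Its relative Usp5, which takes apart unanchored chains, differed by -0.03 (SE 0.43).

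Of 4 cell cycle proteases, 3 had the higher mean in LRC, and all 4 had overlapping groups. Usp37, which stabilizes cyclin A against the anaphase-promoting complex, was at 8.47, 6.37 and 5.17 in LRC and at 6.25, 5.83 and 5.47 in non-LRC. LRC holds both its highest and its lowest array, and the difference of 0.82 (SE 0.80) was -0.08 without LRC replicate 1. Usp2, a protease of cyclin D1, was dim at 3.74, 2.79 and 3.03 against 3.10, 2.59 and 2.74 (difference 0.37, SE 0.30), with a difference of 0.10 without LRC replicate 1.

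In the class of endosome, organelle and membrane proteins, LRC had the higher mean for 3 members of 6, and the median was 0.00. Usp6nl was at 6.14, 6.95 and 8.0034 in LRC and at 6.69, 7.39 and 7.55 in non-LRC (difference -0.18, SE 0.50). Usp32, which acts on a late endosomal Rab GTPase, was at 7.36, 7.91 and 8.19 against 7.80, 7.83 and 8.08 (difference -0.08, SE 0.26). Usp8, the endosomal protease that spares receptors from degradation, and Usp19, which is anchored in the endoplasmic reticulum, both differed by less than 0.01 in size. Usp30, the mitochondrial protease that opposes mitophagy, was the least even member in non-LRC, at 2.44, 5.21 and 7.58, while LRC stood at 5.14, 5.63 and 5.41 (difference 0.32, SE 1.197).

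Of the remaining proteases, Usp38 was at 6.76, 5.67 and 6.77 in LRC and at 5.95, 4.65 and 5.64 in non-LRC. Replicate 2 was its lowest array in both groups, and the difference was 0.98 (SE 0.46), with an unadjusted limma p of 0.0726, or 0.60 without non-LRC replicate 2. Usp40 was at 5.76, 6.03 and 5.78 against 5.38, 5.69 and 5.15, without overlap but with a narrow gap (difference 0.45, SE 0.22). Another of its probe sets gave -1.14 (SE 0.82), and the mean of all 4 differed by -0.12. Usp31 was at 4.67, 5.58 and 5.24 in LRC and at 5.49, 5.61 and 6.05 in non-LRC (difference -0.55, SE 0.30). Usp17la, 1 of several near-identical gene copies whose signals cannot be told apart, was dim at 3.40, 2.47 and 3.11 against 2.64, 2.63 and 2.36 (difference 0.45, SE 0.28). The other dim members, below the 40th percentile on average, were Usp2, Usp18, Usp26, Usp29, Usp43 and Usp44.

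Probe sets of a gene often disagreed. Of the 37 members with more than 1 probe set, all others had the sign of the representative in 13, some in 10 and none in 14. Of their 71 other probe sets 49.3% had the same sign, against 55.3% over all genes. Among the 6 members of smallest p the other probe sets all had the same sign in Usp12 and Usp49, some in Usp53, Usp20 and Usp15, and none in Usp48.

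**Figure D4:**
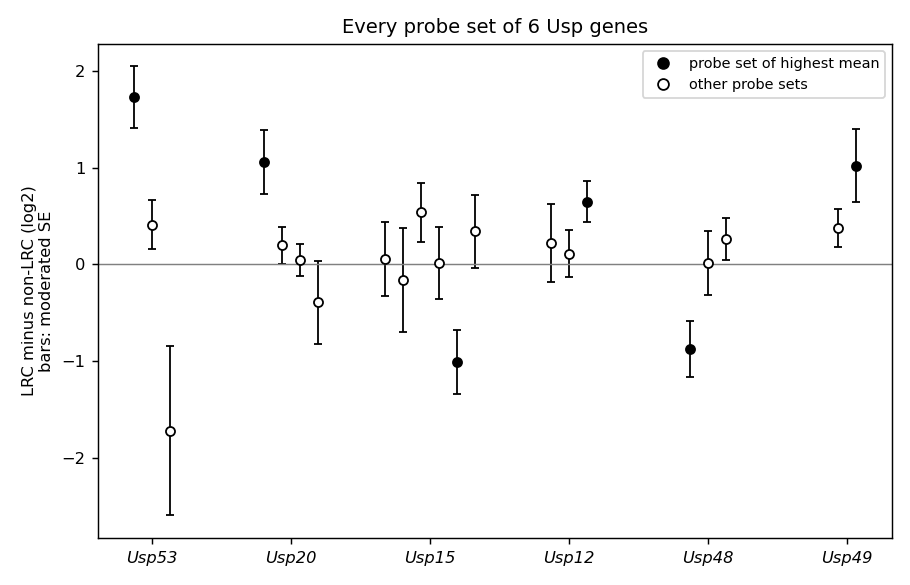
Difference between LRC and non-LRC (y axis, log2, with moderated standard error) for every probe set of the 6 Usp genes with an unadjusted p under 0.05 (x axis). Filled points are the probe sets of highest mean; the open points of Usp12 and Usp49 lie above 0 with them, while an open point of Usp53 lies at -1.72.

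The arrays differed in how often they held a member's extreme value. Non-LRC replicate 1 held the lowest value of 15 members (30.6%), against 14.7% of all genes, and LRC replicate 2 of 2 members (4.08%), against 21.3%. The highest value fell on LRC replicate 1 for 12 members (24.5%), against 31.6% of all genes. The array mean of the 49 members was 5.9997, 6.15 and 6.03 in LRC and 5.85, 5.97 and 6.04 in non-LRC, so that the groups overlapped.

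Other genes of ubiquitin removal were read from lists chosen along with the members, and their counts stand against 45.1% of all genes with a lower mean in LRC and 3.75% with an unadjusted limma p under 0.05. Of 10 measured cofactors 5 had a higher mean in LRC, and Wdr48 was the 1 with an unadjusted p under 0.05. G3bp1, whose product binds and restrains USP10, differed by -0.64 (SE 0.27). Among deubiquitinases of the OTU family 11 of 14 had a lower mean in LRC (median -0.24), and 0 were called. Without LRC replicate 1 the differences of Otud1, Otud3 and Otud4 became 0.31, 0.22 and 0.02, while Otud7a, Yod1 and Otud5 stayed above 0. Without non-LRC replicate 1 those of Tnfaip3, Otud1 and Zranb1 became 0.15, 0.072 and 0.0185, and that of Otud5 became -0.20. Otud6b was the 1 of the 14 whose groups did not overlap, against 8.32% of all genes. It was at 6.46, 6.75 and 5.84 in LRC and at 8.50, 6.98 and 7.46 in non-LRC (difference -1.30, SE 0.45, or -0.87 without non-LRC replicate 1). Otulin, which removes linear chains, differed by -0.62 (SE 0.29).

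Of 7 metalloprotease (JAMM) deubiquitinases 4 had a higher mean in LRC, and all 7 had an unadjusted p above 0.05. Stambp, which acts on endosomes, was at 6.91, 5.32 and 4.55 in LRC and at 4.42, 4.70 and 4.17 in non-LRC (difference 1.17, SE 0.59), and without LRC replicate 1 the difference was 0.51. Mysm1, an H2A deubiquitinase required by HSCs, differed by 0.64 (SE 0.40), and by 0.30 without non-LRC replicate 1. In the other direction, and named after their values were seen, Psmd14 of the proteasome lid differed by -0.82 (SE 0.58), or -0.13 without LRC replicate 1, and Stambpl1 by -0.79 (SE 0.54), or -0.35 without non-LRC replicate 2. The 4 UCH members had a median of -0.08, with Uchl5 at -0.19 (SE 0.19) and Uchl4 at -0.20 (SE 0.25). Josd2 and Atxn3, of the Josephin family, differed by -0.61 (SE 0.36) and -0.13 (SE 0.24), and Cyld by -0.27 (SE 0.22). Of the ISG15 and SUMO relatives 3 of 4 had a lower mean, Uspl1 by -0.57 (SE 0.33) and Herc6 by -0.51 (SE 0.57). Of 6 ubiquitin and E1 genes listed, Uba6 alone had a probe set of its own symbol (difference 0.50, SE 0.72). It was at 8.35, 8.02 and 8.30 in LRC and at 6.01, 8.30 and 8.87 in non-LRC, and without non-LRC replicate 1 the difference was -0.36.

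Genes whose products USP1 or USP7 act on had a lower mean in LRC in 5 of 6 cases. Uhrf1, a DNA methylation factor stabilized by USP7, was at 6.25, 6.04 and 6.34 in LRC and at 9.43, 7.40 and 6.88 in non-LRC, with non-LRC replicate 1 the highest. The difference was -1.70 (SE 0.64), with an unadjusted limma p of 0.0367, and without non-LRC replicate 1 it was -0.94. Pcna, the replication clamp deubiquitinated by USP1, differed by -0.35 (SE 0.26), or -0.093 without LRC replicate 1. Of the 49 measured genes of these lists together, 32 (65.3%) had a lower mean in LRC. The share was 45.1% for all genes and 49.6% for those at or above the 40th percentile. Part of this count rested on single arrays of either group. Without LRC replicate 1 several genes moved above 0, among them Otud1 (0.31), Otud3 (0.22), Atxn7l1 (0.20) and Cops5 (0.17), while Atxn7l3 moved to -0.11. Without non-LRC replicate 1 several did so too, among them Ube2l6 (1.01), Cops5 (0.18), Atxn7 (0.18) and Tnfaip3 (0.15). Uba6 (-0.36), Wdr20 (-0.055) and Bap1 (-0.033) moved below 0 there. An unadjusted limma p under 0.05 was found for 3 of the 49 genes, against 3.75% of all genes, and 0 were called.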

How the data were processed

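Expression was measured on 6 arrays, 3 of LRC and 3 of non-LRC HSCs. Per the labels' protocols, RNA of few cells was amplified in 2 rounds. The values the authors deposited are on a log2 scale, with 1 value for a probe set on an array; RMA (background correction, quantile normalization, probe summary) is named in the submitters' processing notes without a version, and the log base was read from the value range. Quantile normalization hides changes in total RNA. The number of arrays limits the precision.

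Of 45101 probe sets, 64 controls were left out. Symbols came from the platform's annotation: 34945 probe sets had 1 gene, 932 several and 9160 none. The LRC-minus-non-LRC contrast was fitted in limma (version 3.58.1, under R 4.3.3) by lmFit and eBayes without covariates, with Benjamini-Hochberg adjustment over all probe sets and a threshold of 0.05; errors of differences are moderated standard errors. On simulated data with the spread of these arrays, the fit called 4% of 50 probe sets changed by 1 (log2) and 44% of 50 changed by 2. For changes of 3 and 4 it called 62% and 80%, with 3 false calls over all sizes together. Noise was drawn independently for each probe set from its observed spread, so effects shared across an array were left out. Recovery on the real arrays may therefore differ. Named were up to 8 members in each direction by smallest p, 2 per role class or list, and Usp1, Usp3, Usp7, Usp10, Usp15, Usp16, Usp18 and Usp22. Further genes are named to complete their classes or relatives, after their values were seen. The members, role classes and lists were chosen with earlier results of these data known. Usp35 and Usp51, for which no probe set carried the symbol alone, were not analysed here. Alternatives covered normalization, dim probe sets, moderation, array weights, hybridization controls, pairing, left-out arrays, thresholds and the mean of all probe sets.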

Additional observations from a re-analysis of the deposited data

How the results depend on the processing

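No alternative called a Usp gene or any probe set after adjustment, whether arrays were renormalized, weighted, paired or left out, or the threshold raised to 0.1. Replacing adjustment by an unadjusted p under 0.05 with at least a 2-fold change gave 774 of 45037 probe sets and 4 of 49 members. Members are read from 1 probe set per gene, so these counts differ in unit. The members with an unadjusted p under 0.05 numbered 2 to 5 higher and 0 to 3 lower when single arrays were left out; the p stayed under 0.05 in all 6 such fits for Usp53, in 4 for Usp48, 3 for Usp20 and Usp12, 2 for Usp15 and 1 for Usp49. With hybridization controls as a covariate 3 were higher and 0 lower. Usp53 and Usp20 stayed under 0.05 there, and Usp12, Usp49, Usp15 and Usp48 did not. With the mean of all probe sets 1 was higher and 0 lower. This was Usp49, at 0.70 (limma p 0.0124), while Usp53 was at 0.14 (limma p 0.60). With LRC replicates 1 and 3 left out, Usp53 differed by 1.62, Usp20 by 1.33, Usp12 by 0.36 and Usp49 by 0.91. That fit has a lone LRC array, and in it Usp15 differed by -0.32 and Usp48 by -0.87. The median difference ran from -0.021 to 0.11 without single arrays. The share of all genes with such a p was not computed for these alternatives, so the counts describe the members alone. In the main limma fit it was 3.75% of all genes, against 12.2% of the members. The causes were not tested.

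The direction changed for 16 of the 28 named members under some alternative. When single arrays were left out, the range was -0.076 to 1.57 for Usp37, -0.65 to 0.15 for Usp22, -0.14 to 1.07 for Usp18, -0.66 to 0.27 for Usp6nl, -0.27 to 0.14 for Usp32, -0.36 to 0.11 for Usp7, -0.13 to 0.20 for Usp13, -0.19 to 0.26 for Usp3, -0.25 to 0.54 for Usp10 and -0.44 to 0.31 for Usp1. Array weights gave 0.050 for Usp6nl, 0.027 for Usp32, -0.23 for Usp10 and -0.13 for Usp1. The control covariate gave -0.034 for Usp17la, -0.10 for Usp2, -0.040 for Usp37, 0.16 for Usp45, 0.17 for Usp22, 0.16 for Usp6nl, 0.15 for Usp32, 0.23 for Usp7, -0.26 for Usp13 and -0.026 for Usp3. With LRC reduced to replicate 2 the values were -0.073 for Usp17la, -0.023 for Usp2, 0.17 for Usp16, 0.59 for Usp45, 0.0052 for Usp32, 0.34 for Usp7, -0.20 for Usp13, -0.19 for Usp3 and -0.13 for Usp1. The mean of all probe sets gave -0.12 for Usp40, -0.37 for Usp14, 0.41 for Usp32, -0.24 for Usp3 and -0.22 for Usp1. The dim filter left 42 of the 49 members.

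Replicate numbers are shared between the groups. Same-numbered arrays correlated at 0.08, 0.14 and 0.08 in their deviations from the group means, not all over 0.1, so they were not taken as pairs, although each array correlated best with its own number. With the replicate block 0 probe sets and 0 members were called, and 5 members were higher and 2 lower at an unadjusted p under 0.05. The share of all genes in that fit was not computed either. With 3 arrays a group, the differences above are not resolved after adjustment.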
